A study of Mus musculus with 2 samples.

Results

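Cytokine-high homeostatic microglia were the cells of the mouse retina that kept the transcripts of resting microglia and carried the most Il1b, Tnf and Ccrl2. They were selected on measured values, in 2 steps. Base cells had at most 20% mitochondrial UMIs (unique molecular identifiers, each standing for 1 captured mRNA molecule) and at least 4000 UMIs, at least 1 UMI of each of Malat1, P2ry12, Tmem119 and Siglech, and no more than 1 UMI of Mrc1, Pf4, Top2a and Mki67 together. Cytokine-high cells were the base cells in the top 25% of their own library by the summed UMIs of Il1b, Tnf and Ccrl2 over all UMIs of the cell. This gave 175 of 699 base cells in room air (RA) and 72 of 285 in oxygen-induced retinopathy (OIR), or 247 of 984 base cells and of 2708 cells in all. The remaining 524 RA and 213 OIR base cells served as the comparison within each library.

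Both libraries came from C57BL/6J pups killed at postnatal day 17. RA pups were the controls and OIR pups had gone through the oxygen-induced retinopathy model, in which retinal vessels regress and then regrow abnormally. Retinas were pooled and digested, cells positive for CD11b and F4/80 were sorted, and 10x Genomics 3′ libraries were made. Each condition had 1 library, so no test between conditions was possible. None was made between groups of cells either, which the rule had chosen on these same counts. Cells were not treated as replicates of a condition. The 95% intervals in parentheses cover counting error only, not differences between mice, litters or preparations. Intervals of shares take cells as independent draws. Those of levels and ratios take UMIs as independent and leave out the spread between cells.

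Microglia are the resident macrophages of the retina and survey it with fine processes. P2ry12, a purine receptor, and Tmem119 and Siglech, surface proteins, mark them in the resting state. When pattern recognition or cytokine receptors are engaged, NF-kappaB enters the nucleus and drives genes such as Il1b, which encodes the precursor of interleukin-1 beta, and Tnf, which encodes tumor necrosis factor. Ccrl2 encodes an atypical receptor that binds the chemoattractant chemerin without signaling through G proteins.

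The cells of interest were 12.1% of all 1449 RA cells and 5.72% of all 1259 OIR cells. Their median depth was 11051 UMIs in RA and 9320.5 UMIs in OIR, against 10450.5 and 9406 UMIs in the other base cells. Median numbers of genes were 2945 and 2754, against 2949.5 and 2785, and median mitochondrial shares were 4.42% and 5.01%, against 3.97% and 4.63%. Depth and RNA quality were thus close between the groups, although in RA the share of cytokine-high cells was 16% (10.9% to 22.3%) in the shallowest quartile of base cells and 30.3% (23.6% to 37.7%) in the deepest. In OIR the shares from the shallowest to the deepest quartile were 32.4% (21.8% to 44.5%), 18.3%, 28.2% and 22.2% (13.3% to 33.6%), without a steady order. No barcode was shared between the libraries (0 in common). No doublet caller was run, and the base rule removed 57 RA and 104 OIR cells for their Mrc1, Pf4, Top2a or Mki67 UMIs. Leaving out the 2% of cells with the most genes kept 25 of the 26 genes described below as higher in both libraries.

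The score that chose the cells had no gap at the cut. In RA the cut lay at 5259 CPM (UMIs per 1000000 UMIs), with the lowest cytokine-high cell at 5284 CPM and the highest other cell at 5234 CPM. In OIR it lay at 8480 CPM, where the lowest chosen cell stood, and the highest other cell had 8353 CPM. Within 10% of the cut lay 19 chosen and 24 other cells in RA and 7 chosen and 15 other cells in OIR. The group is a range of the score set by its rule, and no clustering was run. Median scores were 7783 CPM in RA and 11640 CPM in OIR cytokine-high cells, against 1525 and 3913 CPM in the others, and 25 RA and 6 OIR base cells held no UMI of the 3 genes. With 25.7% of the UMIs of RA base cells, cytokine-high cells held 59.4% of their Il1b, Tnf and Ccrl2 UMIs, and in OIR 23.8% of the UMIs and 48.8% of those of the 3 genes.

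**Figure D1:**
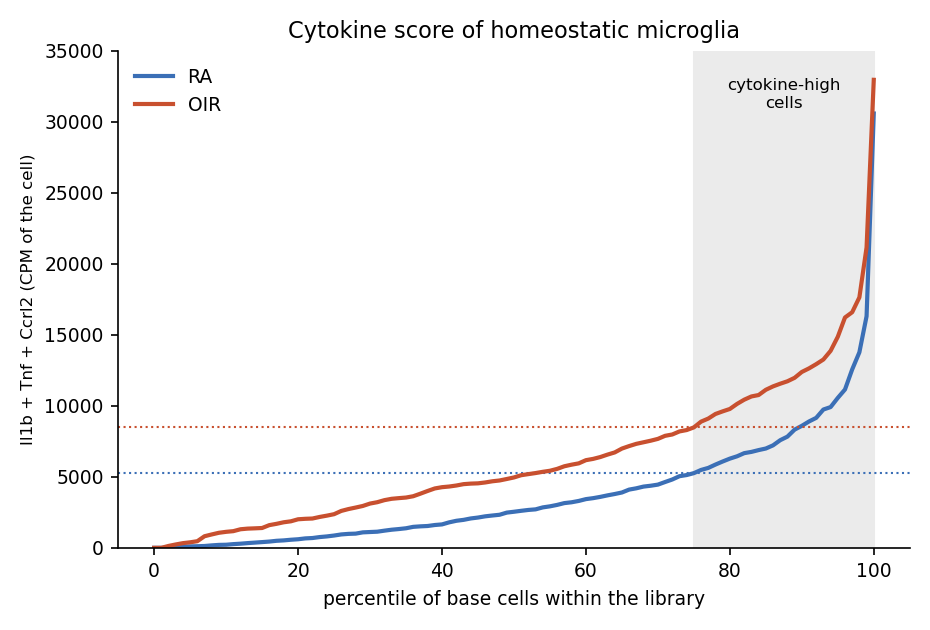
Cytokine score of base cells in RA and OIR. The x axis gives the percentile of base cells within their own library and the y axis the summed CPM of Il1b, Tnf and Ccrl2. The gray band marks the cytokine-high quartile and the dotted lines its cut in RA (5259 CPM) and in OIR (8480 CPM). Both curves pass the cut without a step, and OIR lies above RA over nearly the whole range.

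Because the rule took the same share of each library, it hid any difference in how many cells were cytokine-high. Set against the RA cut, 134 of 285 OIR base cells, or 47.0% (41.1% to 53%), reached the score that 25% of RA base cells reached. Set against the OIR cut, 74 of 699 RA base cells, or 10.6% (8.40% to 13.1%), did. Over all base cells the summed level of the 3 genes was higher in OIR by 0.70 on the log2 scale. The 3 genes were also found outside the base cells. Of all their UMIs in the RA library, cytokine-high cells held 42.7% and other base cells 29.2%, whereas cells without a UMI of Malat1 or of one of the homeostatic genes held 11.8% and those removed for Mrc1, Pf4, Top2a or Mki67 held 14.9%. In OIR the same classes held 18.9%, 19.9%, 28.5% and 29.6%, so that the base rule covered less of the OIR cytokine signal.

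Il1b (ENSMUSG00000027398) was summed at 3948 CPM in RA and 5509 CPM in OIR cytokine-high cells, against 654 and 1424 CPM in the other base cells. The middle cytokine-high cell had 3834 CPM in RA and 4968 CPM in OIR, and the middle other cell had 0 and 237 CPM. In every case the spread was wide, with lower and upper quartiles of 1847 and 5589 CPM in RA and 3092 and 7881 CPM in OIR among cytokine-high cells. Il1b was absent from the counts of 18 of 175 RA and 5 of 72 OIR cytokine-high cells, which were chosen on Tnf and Ccrl2. After every cell was thinned to 4000 UMIs, 89.1% (83.6% to 93.3%) of RA and 91.7% (82.7% to 96.9%) of OIR cytokine-high cells held an Il1b UMI, and 41.2% and 52.6% of the others did. Without thinning the shares were 89.7% and 93.1%, against 49.2% and 60.1%. An Il1b UMI was found in 2.28% of 263 RA rods (median 1804 UMIs) and in 1.92% of 208 OIR rods (median 1209 UMIs), photoreceptors that should lack the gene. These rods had been picked for having no UMI of 5 microglial genes, which also removes rods with free microglial RNA, so the shares can understate free RNA.

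Tnf (ENSMUSG00000024401) was summed at 3202 CPM in RA and 4583 CPM in OIR cytokine-high cells and at 936 and 1648 CPM in the others. Nearly all chosen cells carried it, 98.9% in RA and 97.2% in OIR, and so did 83.0% and 91.1% of the others, so Tnf differed in level more than in the share of cells. Ccrl2 (ENSMUSG00000043953) was summed at 1340 and 2155 CPM in cytokine-high cells and at 423 and 940 CPM in the others. UMIs of Il1b outnumbered those of the other 2 genes in 102 of 175 RA and 31 of 72 OIR cytokine-high cells, and UMIs of Tnf in 68 and 35. Ccrl2 led in 5 RA and 6 OIR cells, so that most of the group was set by Il1b or by Tnf.

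To see whether the 3 genes moved together beyond their place in the rule, each was read in the top 25% of cells by the other 2. Il1b was 2.14-fold higher, or 1.05 to 1.15 on the log2 scale, in the RA cells chosen on Tnf and Ccrl2, and higher by 0.67 (0.60 to 0.74) in the OIR cells so chosen. Tnf was higher by 0.86 (0.81 to 0.92) and 0.48 (0.40 to 0.55) in cells chosen on Il1b and Ccrl2. Ccrl2 was higher by 1.15 (1.07 to 1.23) and 0.59 (0.49 to 0.70) in cells chosen on Il1b and Tnf. Each gene was thus above the rest in the cells picked by its partners in both libraries, with the OIR difference under the RA difference for all 3. Across single cells the coupling was weak to moderate. Pearson's r of Il1b and Tnf was 0.35 over 699 RA and 0.17 over 285 OIR base cells, and that of Tnf and Ccrl2 was 0.45 and 0.39. These describe cells of 1 library each, whose levels share its depth and free RNA.

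The label genes outside the rule, Egr3, Tnfaip2 and Prdm1, had been picked as markers of this group with earlier results of these data known. Their higher levels in cytokine-high cells were thus partly set in advance and are a description. Egr3 (ENSMUSG00000033730), an immediate early transcription factor, was at 668 CPM against 210 CPM in RA and at 306 CPM against 124 CPM in OIR, a log2 ratio of 1.67 (1.56 to 1.78) and 1.30 (1.03 to 1.56). Tnfaip2 (ENSMUSG00000021281), named for its induction by tumor necrosis factor, was at 398 against 147 CPM in RA and 218 against 97.9 CPM in OIR, with ratios of 1.43 (1.29 to 1.57) and 1.15 (0.84 to 1.46). Prdm1 (ENSMUSG00000038151), which encodes the repressor Blimp-1, was at 139 against 61.0 CPM in RA and 64.9 against 42.7 CPM in OIR. Its ratio of 1.19 (0.96 to 1.42) in RA was clear of counting error, whereas that of 0.60 (0.06 to 1.13) in OIR was just past 1.5-fold and was 0.49 without the single cell that carried most Prdm1 UMIs in each group. Thinned to 4000 UMIs, 30.3% of RA cytokine-high cells and 14.1% of the others held a Prdm1 UMI, and 15.3% and 12.7% did in OIR. Of these 3 label genes, Egr3 and Tnfaip2 were past 1.5-fold in both libraries, and in OIR the Prdm1 ratio stayed near that limit. With members chosen on Il1b alone, Tnfaip2 was kept as higher in both libraries, and Egr3 and Prdm1 were not.

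Across quartiles of the score, the levels of these genes differed already below the cut. Egr3 stood at 100 CPM in the lowest RA quartile, 212 CPM in the second, 296 CPM in the third and 668 CPM in cytokine-high cells. In OIR it stood at 82.7, 161, 126 and 306 CPM. Tnfaip2 went from 78.4 CPM in the lowest to 398 CPM in the highest RA quartile and from 60.9 to 218 CPM in OIR. The third OIR quartile did not exceed the second for Egr3, and the highest did not exceed the third for Prdm1 (64.9 and 65.7 CPM).

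**Figure D2:**
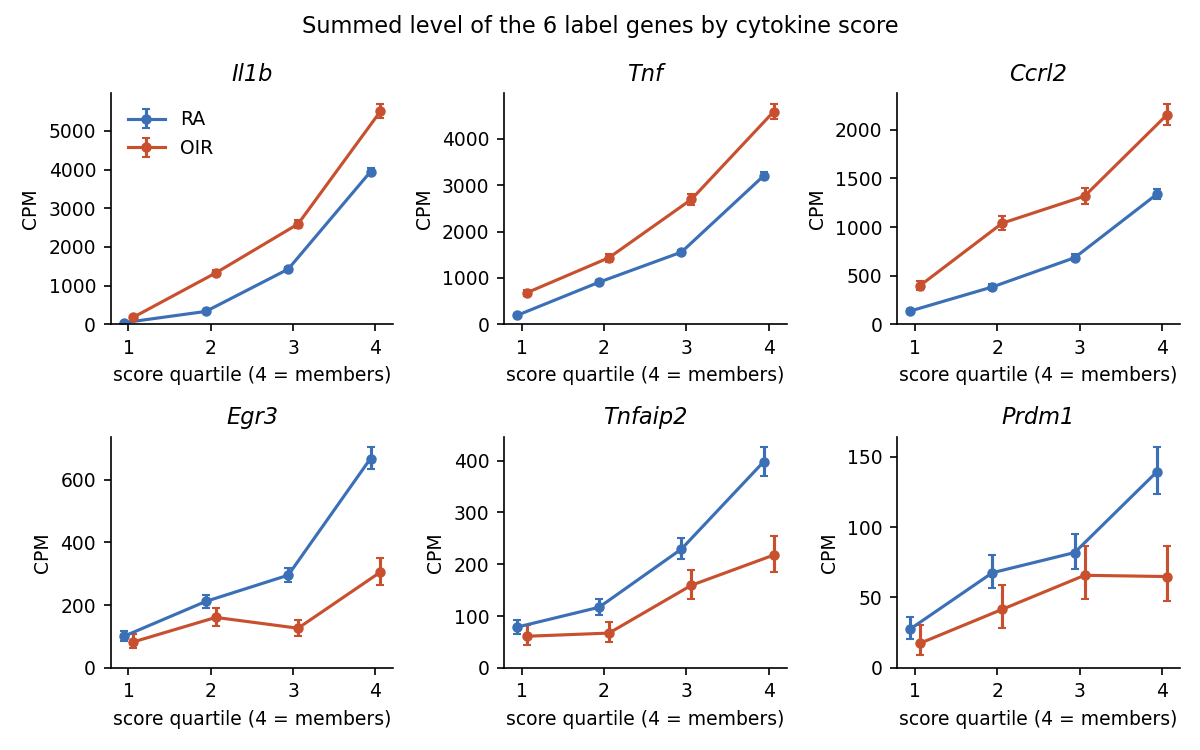
Summed level of the 6 label genes in CPM (y axes, from 0) by quartile of the cytokine score within each library (x axes, 4 being the cytokine-high cells), for RA and OIR. Bars are exact Poisson 95% intervals for counting error. Il1b, Tnf and Ccrl2, which made the score, lie higher in OIR than in RA in every quartile, whereas Egr3, Tnfaip2 and Prdm1 lie lower in OIR.

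Genes were then compared between cytokine-high and other base cells in each library, taking those with at least 50 CPM in 1 of the groups and at least 3 UMIs in both, without the 3 genes of the rule. A ratio of 1.5-fold or more was counted, in place of a test. In RA, 73 of 2902 genes (2.52%) were higher by this measure and 80 (2.76%) lower, and in OIR 70 of 3017 (2.32%) were higher and 117 (3.88%) lower. Of 2596 genes compared in both libraries, 26 (1.0%) were higher in both and 23 (0.886%) lower in both. The middle ratio of all these genes was -0.04 in either library. These genes were read in the same cells that the rule had ranked, so their values are a description of the chosen cells. Of the 26 higher genes, 7 were under 50 CPM in the other base cells of at least 1 library (Cybb, Edn1, Il12b, Mthfsl, Prdm1, Ptgs2 and Tnfsf9) and so were compared there only through the cells where they were high. Of the 23 lower genes, 8 were likewise under 50 CPM in the cytokine-high cells.

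By the ratio nearer 0 of the libraries, Il12b, Tnfsf9, Arl5c, Edn1 and Bcl2a1a stood highest among the genes that were higher in both, Il12b, Tnfsf9 and Edn1 being among the 7 that the floor admitted through cytokine-high cells. Il12b, the subunit shared by interleukins 12 and 23, was at 132 CPM in RA cytokine-high cells and 8.20 CPM in the others, and at 209 and 47.2 CPM in OIR, log2 ratios of 4.01 (3.57 to 4.49) and 2.15 (1.78 to 2.52). It came from few cells, with a UMI in 18 of 175 RA and 9 of 72 OIR cytokine-high cells. Tnfsf9, the ligand of the costimulatory receptor 4-1BB, was at 92.6 against 19.1 CPM in RA and 588 against 146 CPM in OIR, a ratio of 2.28 (1.93 to 2.63) and 2.01 (1.79 to 2.22). Ccl7, a chemokine that attracts monocytes, had ratios of 2.24 and 1.15, and Ptgs2, the inducible cyclooxygenase of prostaglandin synthesis, of 2.48 and, in OIR, a 2.15-fold higher level. Edn1, the vasoconstrictor peptide endothelin-1, had ratios of 1.60 and 1.35, but 39.5% of its UMIs in OIR cytokine-high cells lay in 1 cell. Cxcl10, a chemokine best known as a target of interferons, was the reverse of most, with a larger ratio in OIR (1.39) than in RA (0.64, 0.57 to 0.72).

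Genes of other roles were higher in both libraries as well. Nr4a3, an orphan nuclear receptor of the immediate early class, had ratios of 2.32 and 1.09, and its relative Nr4a1 of 1.21 and 0.69. Bcl2a1a, which encodes an inhibitor of apoptosis, had ratios of 1.47 and 1.30, and Bcl2a1b of 0.82 and 0.61. Since the Bcl2a1 copies are nearly identical, reads could be split between them and their single values are uncertain. Ier3, an early gene linked to survival, was at 2613 against 1305 CPM in RA and at 3005 against 1856 CPM in OIR. Gadd45b, a stress-inducible regulator of MAP kinase signaling, had ratios of 0.88 and 0.74. Clic4, a chloride intracellular channel protein (1.15 and 0.93), Sdc4, a heparan sulfate proteoglycan (1.17 and 0.83), and Gpr84, a receptor for medium-chain fatty acids (0.73 and 0.77), were also higher in both. Arl5c, a small GTPase of the ARF family, was at 697 against 245 CPM and 1127 against 440 CPM. Pdgfb, a growth factor that recruits pericytes to vessels, was at 449 against 297 CPM in RA and at 427 against 266 CPM in OIR.

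Among the genes that were lower in both libraries, Tsc22d3, Klf2, Fosb and Dusp6 stood lowest by the ratio nearer 0. Tsc22d3 and Dusp6 were among the 8 that reached the floor in 1 or both libraries only through the other base cells. Klf2, a Krüppel-like factor that restrains myeloid activation, was at 309 CPM against 792 CPM in RA and at 450 CPM against 1122 CPM in OIR, ratios of -1.36 (-1.48 to -1.24) and -1.32 (-1.49 to -1.15). Tsc22d3, the glucocorticoid-induced leucine zipper, had ratios of -1.32 (-1.59 to -1.06) and -1.34 (-1.90 to -0.83). Klf4 stood at -0.88 and -1.02 and Klf6 at -0.85 and -0.93. Fosb had ratios of -1.09 and -1.06, Fos of -0.78 and -0.62 and Jund of -0.77 and -0.59, all 3 being subunits of the AP-1 transcription factor. Dusp6, a phosphatase that turns off ERK, had ratios of -1.06 and -1.03. Hmox1, the heme oxygenase, was much lower in RA, at 483 CPM against 1958 CPM, than in OIR, at 1332 CPM against 2151 CPM. Its ratio was -2.02 (-2.12 to -1.93) in RA and -0.69 (-0.79 to -0.59) in OIR, where 1 cytokine-high cell held 24.4% of the UMIs and the ratio without the top cell of each group was -0.98.

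**Figure D3:**
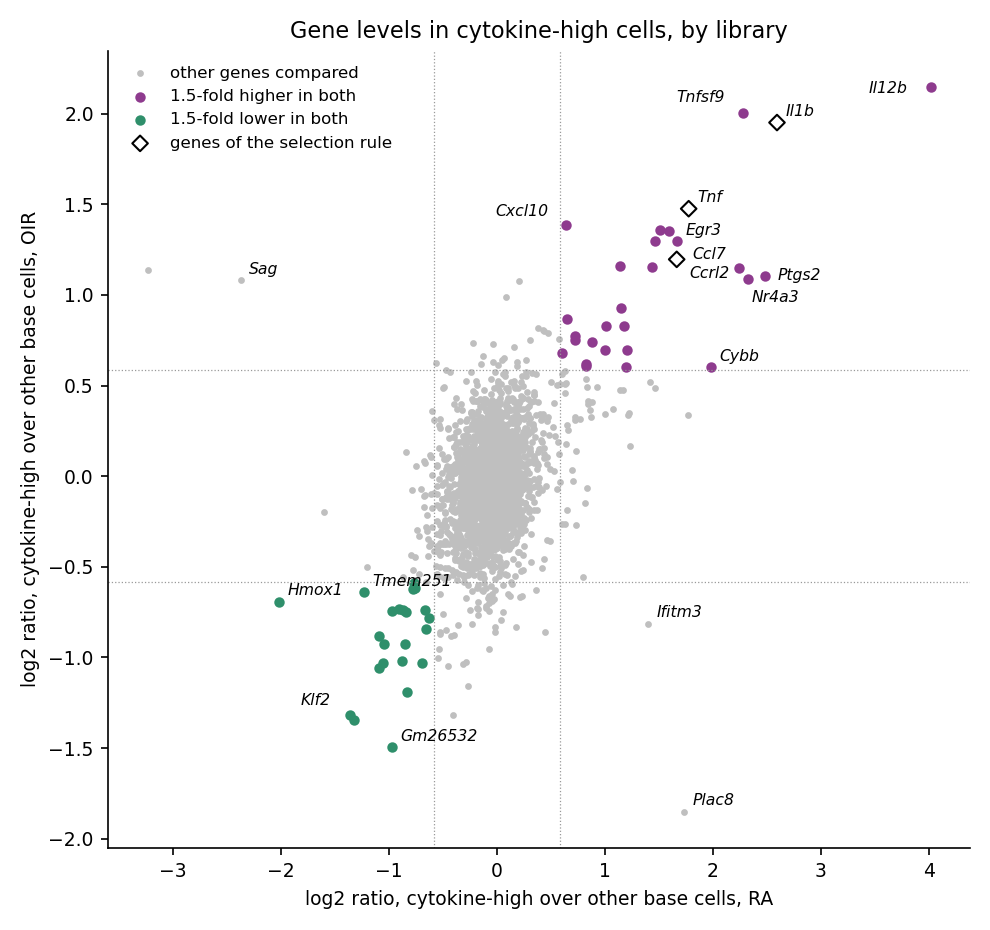
Log2 ratio of summed levels in cytokine-high over other base cells, in RA (x axis) and OIR (y axis), for 2596 genes compared in both libraries and the 3 genes of the rule (open diamonds). Dotted lines mark 1.5-fold, purple points the 26 genes higher in both and green points the 23 lower in both. Il12b and Tnfsf9 stand at the upper right and Klf2 at the lower left, and Sag, Ifitm3 and Plac8 lie on opposite sides in the libraries.

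Lists of genes with known roles showed where these differences fell. Of 23 NF-kappaB target genes, 17 could be compared, of which 5 were higher in both libraries (Tnfaip2, Ptgs2, Gadd45b, Ier3 and Bcl2a1b) and 0 lower, beside 1.0% and 0.886% of all genes compared. Ptgs2 had reached the floor in RA only through cytokine-high cells, and Tnfaip2 was a label gene. With members chosen on Il1b alone, 5 NF-kappaB genes again passed, but Gadd45b, Ier3 and Bcl2a1b were not kept. The middle ratio of the 17 target genes was 0.40 in RA and 0.46 in OIR. The summed level of the list went from 10251 CPM in the lowest to 18528 CPM in the highest quartile of the score in RA. In OIR it went from 11699 to 19897 CPM. The NF-kappaB subunits and inhibitors differed less. None of the 11 compared passed 1.5-fold in both libraries (0 higher, 0 lower), the middle ratios were 0.19 and 0.02, and the most abundant, Nfkbia, the inhibitor that NF-kappaB itself induces, had ratios of 0.28 and 0.46.

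Of 10 chemokines compared, 9 had a ratio above 0 in both libraries, beside 22.7% of all genes compared. Past 1.5-fold higher in both were 3 (Ccl7, Ccl9 and Cxcl10), beside 1.0%. With members chosen on Il1b alone, Ccl7, Ccl9 and Cxcl10 were not kept. Ccl9 was also not kept after thinning, with the top 10% as members or with members chosen on Tnf and Ccrl2. Cxcl10 was also not kept at 8000 or more UMIs. Ccl4 and Ccl3, the macrophage inflammatory proteins, were the most abundant. Ccl4 was at 13126 CPM in RA cytokine-high cells, 7166 CPM in the other RA cells, and 7020 and 5607 CPM in OIR, and Ccl3 at 9443, 5135, 6480 and 4878 CPM. In RA their ratios were 0.87 and 0.88, and in OIR 0.32 and 0.41, below 1.5-fold. Some CC chemokines are close paralogs, so that reads may have been divided among them. Summed chemokines stood at 29687 CPM in RA and 20672 CPM in OIR cytokine-high cells, and at 15694 and 15431 CPM in the others. Of 11 cytokine and inflammasome genes compared, 3 were higher in both (Il12b, Tnfsf9 and Ptgs2), beside 1.0% of all genes, but each of the 3 had reached the floor in RA only through cytokine-high cells. Il1a, which encodes interleukin-1 alpha, was at 2965 against 1979 CPM in RA and 4062 against 2850 CPM in OIR, and Nlrp3, the inflammasome sensor, had ratios of 0.12 (0.02 to 0.22) and 0.05 (-0.13 to 0.23). None of 11 innate receptors and adaptors passed in both libraries (0 in each direction), the lipopolysaccharide co-receptor Cd14 having ratios of 0.63 and 0.58.

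The immediate early list was divided. Of 19 genes compared, 3 were higher in both libraries (Egr3, Nr4a3 and Nr4a1), beside 1.0% of all genes. Lower in both were 6 (Klf2, Fosb, Klf4, Klf6, Fos and Jund), beside 0.886%. Egr3 was a label gene. With members chosen on Il1b alone, only Klf4 of these higher and lower genes was kept. The summed level of the list was lower at higher scores. It went from 38976 CPM in the lowest RA quartile to 25218 CPM in cytokine-high cells and from 31272 to 22951 CPM in OIR. Immediate early genes are commonly induced when tissue is dissociated. The list held genes on both sides, and its sum is not a measure of handling. The part of handling in the ratios was not tested. Heat shock genes, also linked to handling, were summed at 4326 CPM against 5013 CPM in RA and 5614 against 6015 CPM in OIR, with 0 of 9 genes higher and 1, Dnajb1, lower in both (1.0% and 0.886% of all genes). In single cells Pearson's r with Fos over 699 RA and 285 OIR base cells was -0.13 and -0.07 for Il1b, -0.22 and -0.09 for Tnf and -0.28 and -0.19 for Ccrl2, all weak. Among stress genes, 4 of 10 were lower in both (Sertad1, Rrad, Hmox1 and Atf4), beside 0.886% of all genes, and 1, Gadd45b, was higher, beside 1.0%. With members chosen on Il1b alone, Sertad1, Rrad, Hmox1, Atf4, Gadd45b and Dnajb1 were not kept. Hmox1, Atf4 and Dnajb1 were also not kept after thinning to 4000 UMIs. Of 8 feedback regulators of MAP kinase and G protein signaling, 1, Dusp2, was higher (1.0% of all genes) and 2, Dusp6 and Rgs2, were lower (0.886%). Dusp2 and Rgs2 were not kept with members chosen on Il1b alone.

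Homeostatic transcripts had close summed levels in cytokine-high and other cells. The 21 homeostatic microglia genes compared had middle ratios of -0.06 and 0.00, and 0 were higher and 0 lower by 1.5-fold in both libraries, which is near the 1.0% and 0.886% of all genes. The summed level of the list was 28240 CPM in RA and 28361 CPM in OIR cytokine-high cells, against 28667 and 28628 CPM in the others. Cx3cr1, the fractalkine receptor, had ratios of -0.02 and 0.01, and Csf1r, the receptor for a growth factor on which microglia depend, of 0.01 and 0.00. P2ry12, at -0.10 and -0.05, Tmem119, at -0.15 and 0.09, and Siglech, at -0.23 and -0.19, had been required to be detected, which limits what their values show. The 10 disease-associated microglia genes compared had middle ratios of -0.03 and 0.00, among them Apoe at -0.20 and -0.12, and 0 passed 1.5-fold in both libraries, again near the share of all genes. Of 18 myeloid transcription factors, 1, Prdm1, was higher (1.0% of all genes) and 1, Cebpd, lower (0.886%). Prdm1, a label gene, had reached the floor in OIR only through cytokine-high cells. With members chosen on Il1b alone, Prdm1 and Cebpd were not kept. Of 15 interferon response genes 3 reached the floor, of 9 MHC genes 5, and of 14 mRNA decay genes that bind AU-rich elements 9, with 0 past 1.5-fold in both libraries in each list, Zfp36, the decay factor that targets Tnf mRNA, having ratios of 0.03 and 0.07.

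**Figure D4:**
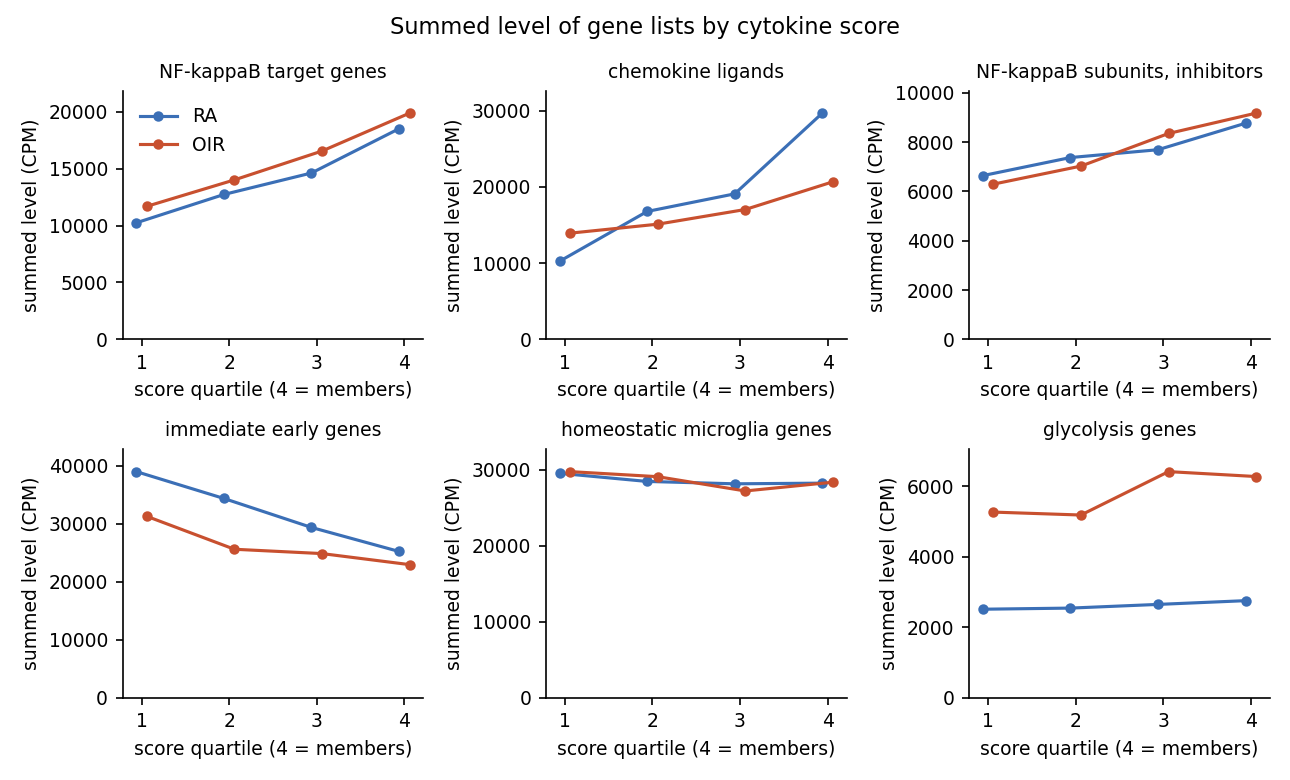
Summed level of 6 gene lists in CPM (y axes, from 0) by quartile of the cytokine score (x axes, 4 being the cytokine-high cells), in RA and OIR. NF-kappaB targets and chemokines stand higher and immediate early genes lower at higher scores in both libraries, homeostatic genes stay between 27210 and 29754 CPM, and glycolysis genes differ between libraries in every quartile.

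Promoters of the genes that separated cytokine-high cells were read for the NF-kappaB consensus, in RefSeq windows (GRCm38.p6) of 250 bases before to 50 bases after the start, on both strands. Windows were found for 21 of the 26 genes that were higher in both libraries, and 8 of these genes (38.1%) held a match: Ccl9, Clic4, Cxcl10, Ier3, Nr4a1, Pde4b, Sdc4 and Tnfaip2. Of the genes lower in both, 18 had windows and 3 (16.7%) held a match, Fos, Fosb and Tsc22d3. The share was 13.3% of 2080 compared genes with windows and 9.55% of all 27025 genes with windows. The AP-1 motif TGANTCA, searched in the same way, lay in 6 of the 21 genes higher in both (28.6%), 1 of the 18 lower (5.56%), 6.49% of compared genes and 8.97% of all genes. In the smaller sets named by rank the shares lay close together. The NF-kappaB consensus was found in 3 of 11 higher genes with windows (27.3%, the genes of the rule included), Ccrl2, Clic4 and Tnfaip2. Il1b and Tnf of the rule were not among them, for want of a match or of a window. The consensus was found in 2 of 8 lower genes (25%), and the AP-1 motif in 1 of each set (9.09% and 12.5%). A match is a run of letters and not a measured binding site. The following stretches, each given 5′ to 3′ on the strand of its gene and lying before the start, show the match in capitals with up to 25 bases on each side, first for Ccrl2 of the rule, then for 6 genes that were higher in cytokine-high cells and last for 2 that were lower.
Ccrl2, chr9:111057540-111057599, minus strand: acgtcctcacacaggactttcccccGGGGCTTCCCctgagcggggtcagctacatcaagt
Tnfaip2, chr12:111442612-111442660, plus strand: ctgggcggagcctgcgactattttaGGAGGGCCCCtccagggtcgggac
Cxcl10, chr5:92348959-92349018, minus strand: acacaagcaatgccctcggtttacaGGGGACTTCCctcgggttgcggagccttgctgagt
Ccl9, chr11:83578637-83578696, minus strand: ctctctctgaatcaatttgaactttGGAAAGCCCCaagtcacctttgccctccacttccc
Sdc4, chr2:164443236-164443295, minus strand: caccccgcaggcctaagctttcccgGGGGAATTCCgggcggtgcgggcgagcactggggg
Ier3, chr17:35821596-35821655, plus strand: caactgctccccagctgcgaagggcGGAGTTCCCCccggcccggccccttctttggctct
Clic4, chr4:135272976-135273010, minus strand: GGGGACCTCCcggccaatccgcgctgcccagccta
Fosb, chr7:19310199-19310258, minus strand: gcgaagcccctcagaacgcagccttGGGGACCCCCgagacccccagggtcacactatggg
Fos, chr12:85473651-85473710, plus strand: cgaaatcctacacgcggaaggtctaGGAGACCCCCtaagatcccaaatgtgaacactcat
The Ccrl2 match lay 56 to 47 bases before the start, that of Tnfaip2 24 to 15 bases, that of Ccl9 35 to 26 bases and that of Ier3 92 to 83 bases before it. Fosb and Fos, with the lower levels given above, had matches as well, 188 to 179 and 214 to 205 bases before their starts.

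OIR and RA were then compared within cytokine-high cells, and the same ratio was read in the other base cells. Il1b was higher in OIR by 0.48 (0.42 to 0.54) on the log2 scale in cytokine-high cells and by 1.12 (1.05 to 1.19) in the others, Tnf by 0.52 and 0.82 and Ccrl2 by 0.69 and 1.15. Since the OIR cut was higher, the rule itself favored higher levels of its 3 genes in OIR, in cytokine-high cells and also in the others, which in OIR held cells between 5259 and 8480 CPM that would have been chosen in RA. The label genes outside the rule had the opposite order. Egr3 was lower in OIR, with a ratio of -1.13 (-1.34 to -0.92) in cytokine-high and -0.75 (-0.95 to -0.56) in other base cells, Tnfaip2 with -0.87 (-1.13 to -0.62) and -0.59 (-0.81 to -0.37), and Prdm1 with -1.10 (-1.59 to -0.65) and -0.51 (-0.86 to -0.18). Among the other base cells Prdm1 was under 50 CPM in OIR (42.7 CPM) and was compared only through RA. OIR cytokine-high cells thus carried less Egr3, Tnfaip2 and Prdm1 than RA cytokine-high cells. Against the other RA base cells they stood higher for Egr3 (306 and 210 CPM) and Tnfaip2 (218 and 147 CPM) and close for Prdm1 (64.9 and 61.0 CPM).

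Other mediators were split in the same comparison. Tnfsf9 was higher in OIR by 2.67 (2.41 to 2.92) in cytokine-high cells and by 2.94 (2.62 to 3.26) in the others. Cxcl10 was higher by 0.71 (0.61 to 0.81) in cytokine-high cells but stood at -0.04 (-0.12 to 0.05) in the others. Il12b, Ptgs2 and Ccl7 were higher by 0.66, 0.45 and 0.23 in cytokine-high cells and by 2.52, 1.83 and 1.31 in the others. Among the others Il12b was under the floor of 50 CPM in both libraries (8.20 CPM in RA and 47.2 CPM in OIR). Tnfsf9 and Ptgs2 were under it there in RA (19.1 and 24.6 CPM) and were compared only through OIR. Ccl4 was lower in OIR, at -0.90 (-0.95 to -0.86) in cytokine-high and -0.35 (-0.38 to -0.33) in other cells, and Ccl3 stood at -0.54 and -0.07. Nr4a3 was lower in OIR among cytokine-high cells (-0.78, -1.10 to -0.48) and higher among the others (0.45, 0.17 to 0.73). Cd14 was higher by 1.26 and 1.31, so that its difference between libraries was alike in both groups of cells.

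Over all genes, 139 of 3071 compared (4.53%) were at least 2-fold higher in OIR than in RA cytokine-high cells and 205 (6.68%) at least 2-fold lower, with a middle ratio of 0.10. Centred on that middle ratio, 98 were higher and 238 lower, whereas with the top 10% as members 294 were higher and 247 lower and with a floor of 10 CPM 587 and 522, so the balance had no fixed direction. Of 14 glycolysis genes compared, 10 were higher in OIR, with a middle ratio of 1.31 in cytokine-high and 1.05 in other base cells, and summed levels of 6278 CPM in OIR and 2757 CPM in RA cytokine-high cells and 5650 and 2575 CPM in the others. Gapdh was at 1931 CPM against 754 CPM and Pkm, the pyruvate kinase, at 778 against 292 CPM. Processed copies of Gapdh and Pkm exist in the genome, and reads were left as counted. Between cytokine-high and other cells of a library these genes had middle ratios of 0.17 in RA and 0.16 in OIR, with 10 of 13 above 0 in both libraries, beside 22.7% of all genes, and 0 past 1.5-fold in both. Their sum in the middle cell was 2486 against 2426 CPM in RA and 5268 against 3992 CPM in OIR. Ctsd, a lysosomal protease of the disease-associated list, was at 8609 against 3832 CPM, and 5 of 13 genes of that list were at least 2-fold higher in OIR.

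Among the genes with the largest ratios, Slc7a11, the cystine transporter, was at 208 CPM in OIR and 41.9 CPM in RA cytokine-high cells (2.31, 1.91 to 2.71). Rab7b, a GTPase of endosomal transport, had a ratio of 2.60 and Prdx4, a peroxiredoxin of the secretory pathway, of 2.11. Their ratios in the other base cells were 1.45, 2.66 and 1.74, so all 3 were higher in OIR in both groups. In RA all 3 were under 50 CPM, at 41.9, 14.3 and 29.1 CPM in cytokine-high cells and 38.8, 11.1 and 41.1 CPM in the others. They were thus compared only through OIR cells. Gdf15, a stress-induced cytokine, had the highest ratio, 3.41 (2.54 to 4.38), but its 51 UMIs in OIR cytokine-high cells lay in 5 cells and 45.1% of them in 1 cell. Fn1, fibronectin, had a ratio of 2.76 on 58 UMIs in 8 OIR cells, and AI504432, a transcript without a known role, of 2.06. In RA cytokine-high cells Gdf15, Fn1 and AI504432 were at 6.90, 12.3 and 12.8 CPM, so they too were compared only through OIR cells.

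The genes with the lowest ratios included the ribosomal protein genes Rps28, Rpl41 and Rps27. Their ratios were -2.95, -2.82 and -2.63 in cytokine-high cells and -2.96, -2.54 and -2.60 in the others. Gm2000 (-3.57), Gm11808 (-2.76), Ndufb2 (-3.11), Snrpg (-2.59) and Tmsb10 (-2.55) stood with them in cytokine-high cells. These further genes were under 50 CPM in OIR cytokine-high cells (5.77, 20.2, 7.21, 20.2 and 31.7 CPM) and so were compared there only through RA. Within RA Rps28 was at 1758 CPM in cytokine-high and 1682 CPM in other base cells, so for these ribosomal protein genes the difference between libraries was about as large outside the cytokine-high cells. Ribosomal protein genes have processed copies, and reads may have been shared among them. S100a6 (-2.72) and Ccl5 (-2.53) rested on single cells, since 1 RA cytokine-high cell held 69.0% of the S100a6 UMIs and 1 held 74.8% of those of Ccl5. Both were also under 50 CPM in OIR cytokine-high cells (8.65 and 49.0 CPM).

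**Figure D5:**
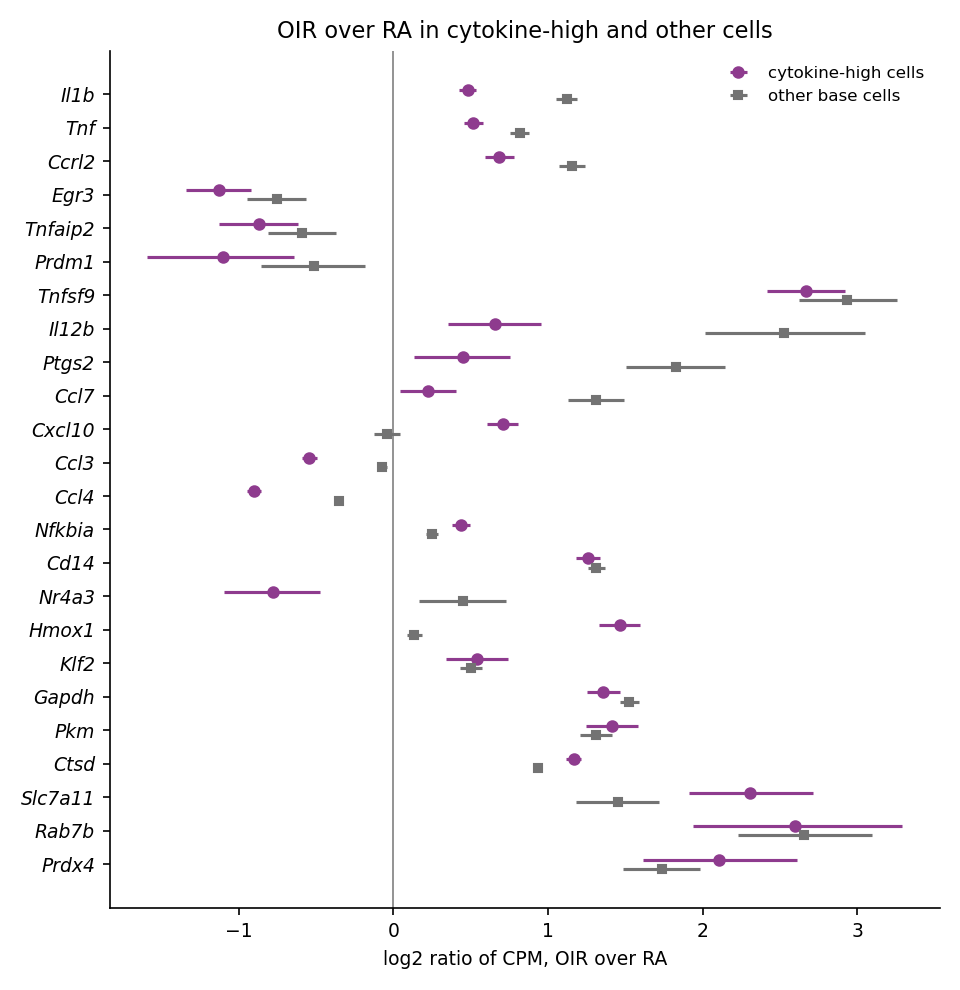
Log2 ratio of summed levels, OIR over RA (x axis), for 24 genes in cytokine-high cells (purple circles) and other base cells (gray squares), with exact 95% intervals for counting error. Il1b, Tnf and Ccrl2 lie above 0 and Egr3, Tnfaip2 and Prdm1 below 0 in both groups. Cxcl10 and Nr4a3 differ between the groups of cells, and Gapdh, Pkm, Cd14 and Rab7b lie close together in both.

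The cells were checked against markers of other cell types. All 8 pan-myeloid markers were present in both libraries, led by C1qb and C1qa, complement subunits made by microglia, at 6150 and 6273 CPM in RA and 10038 and 9488 CPM in OIR cytokine-high cells. Monocyte markers were low and uneven. The 9 genes summed to 215 CPM in RA cytokine-high cells and 45.4 CPM in the other RA cells, and to 120 and 184 CPM in OIR, with Plac8 the most abundant in RA and Fn1 in OIR cytokine-high cells and Ly6c2 and F13a1 at 0 UMIs in the cytokine-high cells of both libraries. In RA 58.7% of the Plac8 UMIs of cytokine-high cells lay in 1 of the 3 cells with any. The 9 rod markers summed here, led by Sag, came to 47.8 CPM in RA cytokine-high cells and 358 CPM in the others, and to 222 and 94.8 CPM in OIR, with no marker at 0 in any group. The part of monocyte and rod transcripts in the ratios was not tested.

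Border macrophage markers summed to 76.3 and 148 CPM in RA and OIR cytokine-high cells and to 92.2 and 165 CPM in the others, mostly from Stab1, with 4 and 5 of 9 genes at 0 in RA and OIR cytokine-high cells, while Mrc1 and Pf4 had been limited by the rule. Neutrophil markers summed to 154 and 137 CPM against 177 and 146 CPM, nearly all from Csf3r, which microglia can also express, with 5 of 9 genes at 0 in RA and 7 in OIR cytokine-high cells. Müller glia markers, led by Glul and with 2 and 0 of 6 genes at 0, summed to 554 and 675 CPM against 680 and 683 CPM, and cone markers, led by Gngt2 and with 3 and 5 of 6 genes at 0, to 181 and 111 CPM against 156 and 110 CPM. Endothelial and pericyte, dendritic, lymphocyte, red cell and dividing cell markers each stayed at or below 33.1 CPM in cytokine-high cells. Rod and monocyte sums thus lay on opposite sides in the libraries, and border macrophage, neutrophil and Müller glia sums were slightly lower in cytokine-high cells in both. The part of these transcripts in the results was not tested.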

How the data were processed

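The authors deposited 1 matrix of raw UMI counts per condition, made with Cell Ranger 3.1.0 per the file headers from 10x 3′ v3 libraries, without normalization. The submitters' processing notes name the build mm10 and Seurat 4.0, which left no trace in these counts. The RA matrix held 1449 cells and 12810892 UMIs, the OIR matrix 1259 cells and 9835402 UMIs. Of 31053 genes, 36 symbols stood on several identifiers and the one with most UMIs was used.

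The level of a gene in a set of cells is its summed count per 1000000 UMIs of that set (CPM). Intervals at 95% were exact Poisson for levels, exact binomial (Clopper-Pearson) for shares and exact conditional for log2 ratios. Those for ratios were tested on simulated independent counts, as the intervals themselves assume. That test could not show how well they cover UMIs gathered in single cells. Thinning to 4000 UMIs used seed 1. Rods were cells with at least 10 UMIs of 5 rod genes and no UMI of 5 microglial genes. Python 3.11.15, numpy 2.4.6, scipy 1.17.1, pandas 2.3.3 and matplotlib 3.10.9 were used.

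The members, gene lists and markers were chosen with earlier results of these data known. Named were the 12 highest and 10 lowest genes by the ratio nearer 0 of the 2 libraries with the same sign, the 10 highest and 10 lowest for OIR over RA in cytokine-high cells, the 6 label genes, and from each list up to 4 genes past 1.5-fold in both libraries and up to 2 of the most abundant others. Further genes named in the text (Bcl2a1b, Nr4a1, Sdc4, Gpr84, Pdgfb, Cybb, Fos, Jund, Cx3cr1, Csf1r, P2ry12, Tmem119, Siglech) and the members of counts were picked after their values were seen. Clec7a, of the disease-associated list, was not analysed here, and some genes that the rule or the lists hold are not reported here. Alternatives were other cuts, depth and mitochondrial limits, scores, scalings and floors. Leaving out each gene's top cell was added after seeing the data.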

Additional observations from a re-analysis of the deposited data

Results flagged for a closer look

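For 3 of the genes reported here the ratio of cytokine-high over other base cells was 1.5-fold or more in opposite directions in the libraries, and this difference was not tested. Sag, rod arrestin, stood at -2.37 in RA and 1.08 in OIR, a difference of 3.46 on the log2 scale. In the other RA cells 53.7% of the Sag UMIs, and in OIR cytokine-high cells 51.6%, lay in 1 cell. Plac8, of the monocyte list, stood at 1.73 in RA and -1.85 in OIR, a difference of -3.58, on 3 RA and 4 OIR cytokine-high cells with a UMI. Ifitm3, of the interferon list, stood at 1.40 and -0.81, a difference of -2.21, and 42.6% of its UMIs in RA cytokine-high cells lay in 1 cell.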

How the results depend on the processing

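With 1 library per condition, counts of genes rest on a fold and a floor. With a floor of 10 CPM, 51 genes were higher and 127 lower in both libraries and 587 higher and 522 lower in OIR, and with no floor 92, 171, 838 and 557, so the balance of OIR over RA, 139 higher and 205 lower, turned. With the top 10% as members, 52 genes were higher and 37 lower in both, 8 NF-kappaB genes were higher in both, 24.6% of OIR base cells reached the RA cut (which then marks 10% of RA cells) and 294 genes were higher and 247 lower in OIR, which turned that balance too. With members chosen on Il1b alone, 16 genes were higher and 5 lower in both, and 40.0% of OIR base cells reached the RA cut. Thinning gave 221 genes higher in OIR. Of the 26 higher and 23 lower genes, 10 and 5 were kept with Il1b alone (not Egr3, Nr4a3, Klf2 or Fosb), 19 and 14 with Tnf and Ccrl2, 20 and 20 at 8000 or more UMIs, 22 and 15 after thinning and 23 and 19 with the top 10%. The log2 ratio of the 3 genes, OIR over RA in all base cells, was 0.76 thinned and as a mean over cells, 0.64 at 8000 or more UMIs and 0.61 without ribosomal protein and mitochondrial genes, against 0.70. Without each gene's top cell, 22 of the 26 higher genes and 22 of the 23 lower genes were kept. Prdm1 and Cybb, at 0.49 and 0.45 in OIR, and Edn1, under the floor at 38.3 CPM there, were not. Nor were Pdgfb, at the 1.5-fold limit in RA (0.59), and Tmem41b. No homeostatic gene passed 1.5-fold lower in both libraries under any of 13 alternatives (0 in each), a count near the share of all genes (0.886%). No paired analysis was possible because each condition had 1 library.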
